A study of Mus musculus with 14 samples.

Results

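The subject is a set of 37 genes of brain vessels, chosen by name from the genes known for brain endothelial cells, the blood-brain barrier, pericytes and vascular smooth muscle. They were looked up by symbol in a table of 55450 genes. All 37 were found and all 37 were among the 18059 genes tested, which had at least 0.5 FPKM (fragments scaled to exon length and to the mapped reads of the library) in at least 3 libraries. They fall into 16 genes of endothelial identity and receptors, 11 of barrier junctions and transport, 7 of pericytes and 3 of smooth muscle. Poly(A) RNA of the hippocampus was sequenced from 14 female C57BL/6J mice at 10 weeks of age, with 1 library per mouse. The 3 Δ3102 mice carried a CRISPR/Cas9 deletion of GPR30, a membrane receptor for estrogen encoded by Gper1, in all cells. The 4 AG-KO mice (GPR30 fl/fl;GFAP-Cre) were deleted in astrocytes by Cre under the mouse GFAP promoter, and the 4 NG-KO mice (GPR30 fl/fl;NSE-Cre) in neurons by Cre under the NSE promoter. The 3 WT mice carried none of these alleles. Mice with Cre alone or with floxed alleles alone were not analysed here, so for AG-KO and NG-KO mice the deletion and the Cre transgene cannot be told apart.

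Endothelial cells line brain capillaries and are sealed to each other by tight junctions. Glucose, lactate and some lipids cross them through carriers, and pumps act on many drugs. Pericytes sit on the capillary wall inside a shared basement membrane, smooth muscle cells wrap the arterioles, and the endfeet of astrocytes cover the whole tree. Endothelial growth and stability are set by vascular endothelial growth factor and its receptors (Flt1, Kdr), by angiopoietins and theirs (Tek, Tie1), and by endothelial transcription factors of the SOX and ETS families. In RNA of whole tissue, fewer cells of a type and less RNA per cell cannot be told apart.

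The libraries held 44527024 to 62669865 counts, and no member had fewer than 51 counts in any library, so that each member was measured in every mouse. The targeted gene, Gper1, was low throughout, at 0.0686, 0.145 and 0.0124 FPKM in the Δ3102 mice, 0.540, 1.38, 0.891 and 1.22 in the AG-KO mice, 1.10, 1.41, 0.975 and 1.11 in the NG-KO mice and 0.797, 1.15 and 3.05 in the WT mice. Each Δ3102 mouse lay below each WT mouse, whereas AG-KO and NG-KO mice overlapped with WT mice. Transcripts of other organs were present in uneven amounts. The summed FPKM of 15 liver genes was 76.4 to 2037 in Δ3102, 99.2 to 365 in AG-KO, 64.0 to 279 in NG-KO and 652 to 711 in WT mice, and that of 11 skeletal muscle genes was 683 to 927, 39.2 to 375, 44.2 to 312 and 53.3 to 706. The liver list includes Ttr, which is also in the list of choroid plexus genes, so its sums do not measure liver RNA alone. In Δ3102 replicate 1 the liver sum was 2037, the choroid plexus sum 1551 and albumin (Alb) 161 FPKM. In AG-KO replicate 3 they were 332, 293 and 0.0001.

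The levels of the 37 genes in WT mice spanned a wide range. Bsg, the chaperone that carries lactate transporters to the membrane and is also made by other brain cells, was highest at 203 ± 44.7 FPKM (SD, n = 3). Below it stood Vtn (vitronectin, a matrix protein of brain pericytes, 42.7 ± 8.23), Itm2a (a membrane protein of barrier endothelium, 42.3 ± 6.36), Pltp (phospholipid transfer protein, 24.9 ± 1.37), Slc2a1 (the glucose carrier of the barrier, 23.3 ± 1.99) and Cldn5 (the main claudin of its tight junctions, 18.0 ± 3.17). FPKM is scaled per length, so that these levels can be set side by side. The genes of junctions and transport thus held most of the upper places, and those of endothelial identity and receptors most of the lower ones. The lowest was Sox17, a factor of arterial endothelium, at 0.456 ± 0.0984. Pericyte and smooth muscle genes such as Abcc9, Notch3 and Myh11 were near the bottom too. In all, 9 members averaged at least 10 FPKM and 8 averaged under 2 FPKM. The order of close neighbors was not resolved, since in 30 of 36 neighboring pairs the ranges of the 3 WT mice overlapped. The pairs that did not overlap were Bsg and Vtn, Itm2a and Pltp, Slc2a1 and Cldn5, Rgs5 and Mfsd2a, Erg and Abcc9, and Abcc9 and Sox17.

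**Figure D1:**
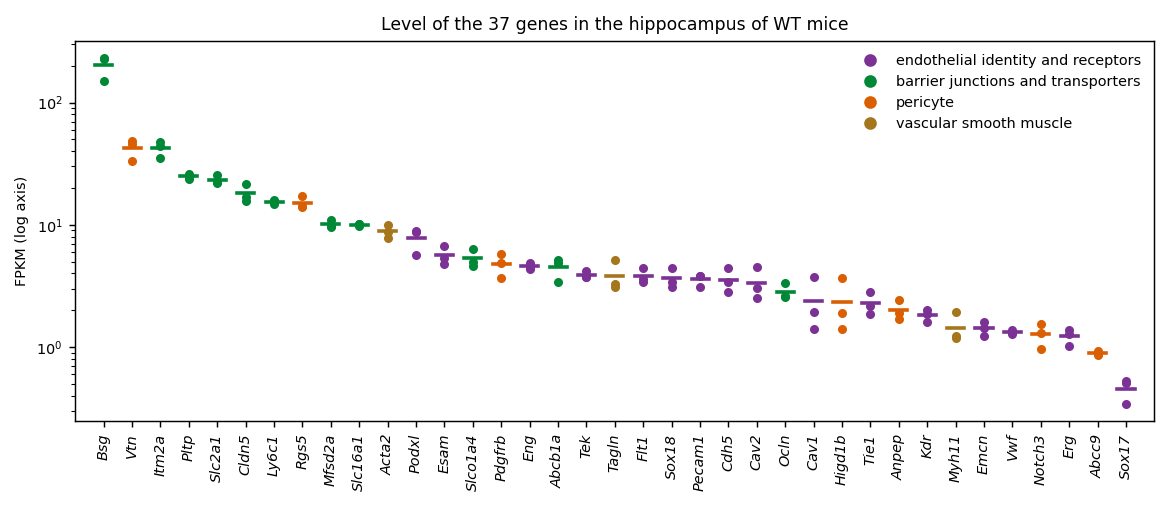
FPKM of the 37 genes in the hippocampus of the 3 WT mice, on a log axis, in order of the mean (line), with 1 point per mouse and color by role. Bsg stands alone at the top at 203 FPKM, and Sox17 is lowest at 0.456 FPKM.

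Across the 14 mice the spread differed from member to member. The ratio of the highest to the lowest mouse was under 2 in 20 of the 37 genes, with a median of 1.87. It was smallest for Rgs5, a regulator of G protein signaling in pericytes, at 12.3 to 17.9 FPKM. It was largest for Cav1, which coats caveolae, at 0.997 to 4.45 FPKM, and both of these extremes were Δ3102 mice. Higd1b, a pericyte gene of low count (51 to 216), ranged over 1.15 to 3.99 FPKM, and both extremes were NG-KO mice. For these genes the spread lay within a genotype.

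Single mice stood apart. AG-KO replicate 4 held the highest level of 12 of the 37 genes, and its median deviation from each gene's mean over the 14 libraries was 0.34 on the log2 scale, with 32 genes above their mean. All 16 endothelial genes were above their mean in this mouse, at a median deviation of 0.49. WT replicate 3 was highest in 7 genes (median deviation 0.17, 28 genes above), and WT replicate 2 was lowest in 6 (median deviation -0.098, 12 genes above). The 4 NG-KO mice all lay below, at median deviations of -0.13, -0.12, -0.19 and -0.12, with 7 to 15 genes above their mean. AG-KO mice were uneven, at -0.0039, -0.086, 0.11 and 0.34, and Δ3102 mice were at 0.073, 0.078 and 0.014.

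**Figure D2:**
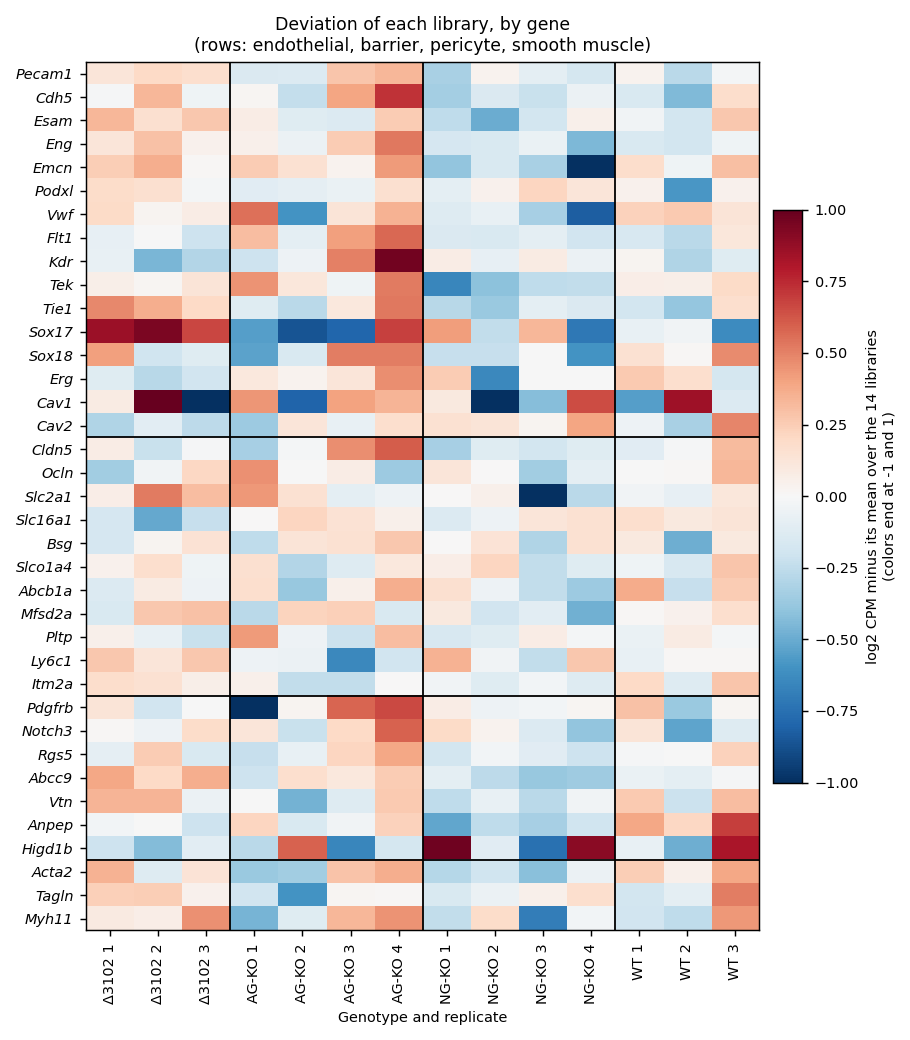
Deviation of each library from the gene's mean over the 14 libraries (log2 of counts scaled to library size), with genes in rows by role, mice in columns by genotype, and red for higher and blue for lower. The column of AG-KO replicate 4 is red in 32 of 37 genes, and the columns of NG-KO mice are mostly blue.

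At an adjusted p under 0.05 from edgeR's quasi-likelihood test, 0 of the 37 genes differed in each of the 4 comparisons, beside 0.0111% of all tested genes for Δ3102 against WT, 0.0221% for AG-KO against WT, 0.072% for NG-KO against WT and 0.111% between AG-KO and NG-KO mice. Of the members, 5 of 37 had an unadjusted p under 0.05 (13.5%) for Δ3102 against WT, 5 for AG-KO against WT, 5 for NG-KO against WT and 9 (24.3%) between AG-KO and NG-KO mice. The same share of all tested genes was 4.45%, 14.4%, 9.16% and 14.1%, in the same order. DESeq2 called 0, 0, 1 and 3 members at its own adjusted p under 0.05, namely Anpep in NG-KO against WT mice and Tek, Flt1 and Emcn in AG-KO against NG-KO mice. Without AG-KO replicate 2, edgeR called 2 members, Tek and Flt1, in AG-KO against NG-KO mice. How many of all tested genes DESeq2 or this refit called was not counted, so these calls have no background share beside them. The comparisons with WT share their 3 WT mice, so they are not independent of each other. Each p from edgeR sets a difference between genotypes against the spread between mice with 1 library each. That spread is estimated over all genotypes in the fit and moderated across genes, so it also depends on mice outside the comparison.

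The median log2 fold change of the 37 genes was 0.024 in Δ3102 against WT mice, 0.021 in AG-KO against WT mice, -0.16 in NG-KO against WT mice and 0.23 in AG-KO against NG-KO mice, where all tested genes had medians of -0.0037, -0.014, -0.016 and -0.0093. Whatever their p, 21, 19, 9 and 29 of the 37 genes were higher in the first-named genotype, beside 49.2%, 48.2%, 47.5% and 48.6% of all tested genes. By sign alone, most members were thus higher in AG-KO than in NG-KO mice and lower in NG-KO than in WT mice. Both of these comparisons use the same 4 NG-KO mice, so they are not separate results. Members in Δ3102 and AG-KO mice were split about evenly against WT mice.

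**Figure D3:**
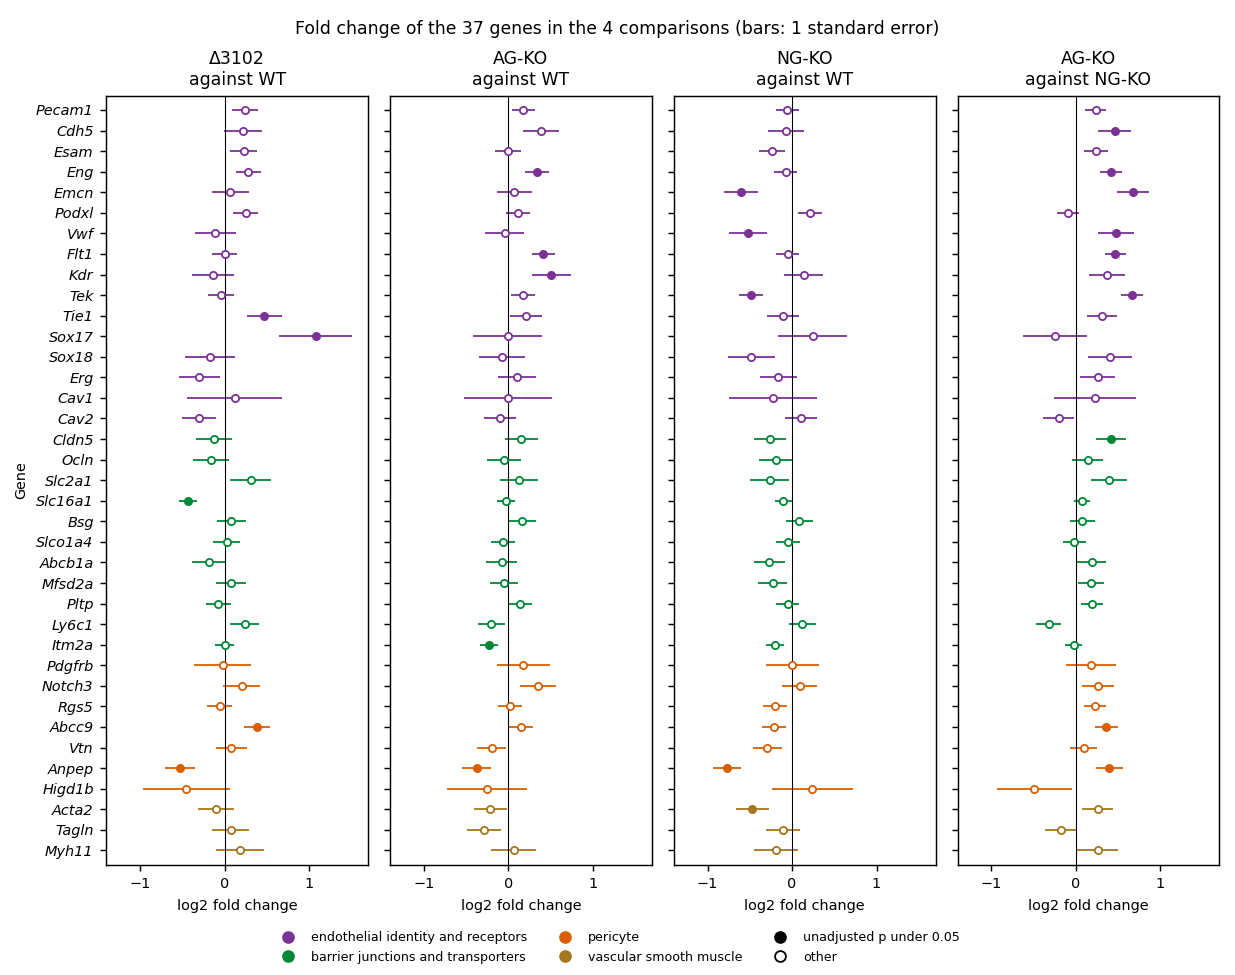
Log2 fold change of each of the 37 genes in the 4 comparisons, with bars of 1 standard error and filled points at an unadjusted p under 0.05 from edgeR. In AG-KO against NG-KO mice 29 of 37 points lie above 0, and in NG-KO against WT mice 9 do.

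Between the astrocyte and the neuron deletion, 9 members had an unadjusted p under 0.05, all of them higher in AG-KO mice (7.3% of all tested genes were higher at that p). Of these, 6 belonged to the 16 endothelial genes (Tek, Flt1, Emcn, Eng, Cdh5 and Vwf), 1 to the 11 barrier genes (Cldn5) and 2 to the 7 pericyte genes (Abcc9 and Anpep). The lowest log2 fold change of a member was that of Higd1b, at -0.49 with an unadjusted p of 0.289. In 5 members each AG-KO mouse lay above each NG-KO mouse (3.46% of all tested genes), and none lay below (3.31%). These 5 were Tek, Flt1, Emcn, Eng and Anpep.

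The promoters of these 5 genes are printed because their levels separated the mice of the 2 deletions. Each is the stretch of 150 bases before the transcription start that RefSeq gives on GRCm38.p6, read 5′ to 3′ on the strand of the gene. The windows are chr4:94739139-94739288 (+) for Tek, chr5:147726012-147726161 (-) for Flt1, chr3:137340928-137341077 (+) for Emcn, chr2:32646445-32646594 (+) for Eng and chr7:79848211-79848360 (-) for Anpep. The RefSeq starts of Emcn and Anpep lie inside the longer gene models of GENCODE, which begin at 137341067 and 79861059. Capitals mark GGAAGT on either strand (ACTTCC on the other), a form of the site that ETS factors bind. Other forms of that site were not searched for, so a window without capitals may still hold them. Capitals also mark TGACGTCA, the full cyclic AMP response element, which reads the same on both strands. It is the site of the factor CREB that the study followed. The motifs do not overlap each other in these windows.
Tek: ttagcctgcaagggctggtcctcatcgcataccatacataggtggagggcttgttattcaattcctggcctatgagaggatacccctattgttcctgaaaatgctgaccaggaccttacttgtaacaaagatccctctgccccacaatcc
Flt1: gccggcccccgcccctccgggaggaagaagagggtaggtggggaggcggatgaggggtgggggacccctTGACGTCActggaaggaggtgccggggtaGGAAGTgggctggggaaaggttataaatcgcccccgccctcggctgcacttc
Emcn: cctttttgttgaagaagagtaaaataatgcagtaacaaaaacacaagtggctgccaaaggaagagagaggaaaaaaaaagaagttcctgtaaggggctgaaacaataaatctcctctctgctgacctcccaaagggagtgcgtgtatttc
Eng: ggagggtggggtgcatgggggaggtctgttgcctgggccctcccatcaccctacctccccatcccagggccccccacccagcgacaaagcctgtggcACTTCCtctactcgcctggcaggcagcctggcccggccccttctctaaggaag
Anpep: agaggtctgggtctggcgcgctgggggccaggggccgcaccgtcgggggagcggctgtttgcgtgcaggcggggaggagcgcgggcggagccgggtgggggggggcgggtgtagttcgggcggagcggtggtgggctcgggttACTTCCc

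The letters GGAAGT, on either strand, were in the windows of Flt1 (52 bases before the start), Eng (53) and Anpep (7), and the response element only in that of Flt1 (81), among the 5 printed. RefSeq windows were found for 25 of the 37 genes. GGAAGT was in 5 of these 25 (20.0%, namely Anpep, Eng, Flt1, Ly6c1 and Tie1), against 13.6% of 32851 mouse promoters of the same length, and the response element was in 1 (4.0%), against 1.36%. A member counted once if any of its windows matched, whereas the mouse promoters were counted window by window, so these shares are in unlike units. A match is a run of letters, and binding was not measured here.

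Tek, the receptor for angiopoietins on endothelium, had the smallest p of any member. Its FPKM was 3.73, 3.60 and 3.97 in the Δ3102 mice, 5.00, 3.89, 3.34 and 4.92 in the AG-KO mice, 2.24, 2.68, 2.99 and 3.04 in the NG-KO mice and 3.74, 3.73 and 4.17 in the WT mice. The NG-KO mice were the 4 lowest of the 14, and AG-KO replicates 1 and 4 were the highest. In AG-KO against NG-KO mice its log2 fold change was 0.66 (SE 0.13), with an unadjusted p of 0.000274 and an adjusted p of 0.0899 from edgeR. The exact permutation p was 0.0286, the smallest that 4 against 4 mice allow. With DESeq2 the adjusted p was 0.00198, at a log2 fold change of 0.67. Without AG-KO replicate 2, the adjusted p from edgeR was 0.0369, at 0.72.

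Flt1, a receptor that binds vascular endothelial growth factor, stood at 3.85, 4.01 and 3.55 FPKM in the Δ3102 mice, 5.13, 3.80, 5.16 and 5.80 in the AG-KO mice, 3.60, 3.64, 3.79 and 3.57 in the NG-KO mice and 3.61, 3.37 and 4.47 in the WT mice. The 4 NG-KO mice were close together, and AG-KO replicate 2 lay just above them. The log2 fold change between the 2 deletions (AG-KO against NG-KO mice) was 0.47 (SE 0.13, unadjusted p = 0.00255, adjusted p = 0.153 from edgeR). Without AG-KO replicate 2 the adjusted p was 0.0206, at 0.58, and with DESeq2 it was 0.0331. Kdr, the main signaling receptor for the same factor, was led by AG-KO replicates 3 and 4 (2.71 and 3.74 FPKM), while AG-KO replicates 1 and 2 (1.76 and 1.93 FPKM) lay within or below the 1.87 to 2.11 FPKM of NG-KO mice. Its log2 fold change in AG-KO against NG-KO mice was 0.37, at an unadjusted p of 0.104, and 0.11 without AG-KO replicate 4.

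Emcn, a mucin of capillary and venous endothelium, was at 1.52, 1.63 and 1.298 FPKM in the Δ3102 mice, 1.55, 1.41, 1.24 and 1.64 in the AG-KO mice, 0.944, 1.14, 1.01 and 0.610 in the NG-KO mice and 1.43, 1.24 and 1.60 in the WT mice. The 4 NG-KO mice were again the lowest of all, and the other 3 genotypes overlapped. In AG-KO against NG-KO mice the log2 fold change was 0.67 (SE 0.19, unadjusted p = 0.00377, adjusted p = 0.168 from edgeR), and DESeq2 gave an adjusted p of 0.0458. Eng, a co-receptor for transforming growth factor beta, was at 5.41, 6.02 and 5.16 FPKM in the Δ3102 mice, 5.22, 4.77, 5.67 and 6.84 in the AG-KO mice, 4.33, 4.44, 4.72 and 3.66 in the NG-KO mice and 4.43, 4.35 and 4.90 in the WT mice. Here the gap between AG-KO and NG-KO mice was narrow, at 4.77 against 4.72 FPKM for the nearest mice. Its log2 fold change between them was 0.41 (SE 0.13, unadjusted p = 0.00745, adjusted p = 0.201 from edgeR).

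Cdh5, the cadherin that joins endothelial cells, stood at 3.81, 4.78 and 3.74 FPKM in the Δ3102 mice, 3.94, 3.25, 4.81 and 6.06 in the AG-KO mice, 2.96, 3.44, 3.26 and 3.70 in the NG-KO mice and 3.42, 2.81 and 4.40 in the WT mice. AG-KO replicate 2 lay inside the NG-KO range, and the difference (0.46, SE 0.20, unadjusted p = 0.0360) had an adjusted p of 0.311 from edgeR and a size of 0.27 without AG-KO replicate 4. Pecam1, an adhesion molecule of the same junctions, was at 4.11, 4.27 and 4.26 FPKM in the Δ3102 mice, 3.46, 3.42, 4.36 and 4.53 in the AG-KO mice, 2.95, 3.84, 3.50 and 3.34 in the NG-KO mice and 3.82, 3.12 and 3.78 in the WT mice. AG-KO and NG-KO mice overlapped for this gene, at a log2 fold change of 0.23 (SE 0.13, 95% interval -0.043 to 0.51).

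Of the 11 barrier genes, 8 were higher in AG-KO than in NG-KO mice (median log2 fold change 0.14), and 1, Cldn5, had an unadjusted p under 0.05. Cldn5 was at 18.0, 14.4 and 17.1 FPKM in the Δ3102 mice, 13.7, 16.8, 22.6 and 24.8 in the AG-KO mice, 13.3, 15.6, 14.9 and 15.8 in the NG-KO mice and 15.6, 16.9 and 21.6 in the WT mice. AG-KO replicates 3 and 4 were the highest of the 14 mice, and AG-KO replicate 1 fell inside the NG-KO range. The log2 fold change was 0.42 (SE 0.18, unadjusted p = 0.0386, adjusted p = 0.318 from edgeR), and 0.27 without AG-KO replicate 4. Slc2a1 was at 24.3, 32.9 and 28.9 FPKM in the Δ3102 mice, 31.9, 25.7, 20.7 and 21.4 in the AG-KO mice, 22.8, 23.9, 10.6 and 19.3 in the NG-KO mice and 22.4, 21.8 and 25.5 in the WT mice. NG-KO replicate 3 was far below all other mice, and the log2 fold change of 0.39 (SE 0.21) in AG-KO against NG-KO mice became 0.19 without it. The other transport genes, among them Slco1a4 (uptake of organic anions), Abcb1a (the drug pump P-glycoprotein), Mfsd2a (a lysophospholipid carrier) and Bsg, had log2 fold changes of -0.017, 0.19, 0.18 and 0.077, each with an unadjusted p above 0.05.

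Of the 7 pericyte genes 6 were higher in AG-KO than in NG-KO mice (median 0.23), and of the 3 smooth muscle genes 2 were (median 0.26). Abcc9, a subunit of the potassium channel of pericytes, and Anpep, a peptidase on their surface, had an unadjusted p under 0.05. Abcc9 was at 1.21, 1.06 and 1.21 FPKM in the Δ3102 mice, 0.815, 1.04, 0.953 and 1.06 in the AG-KO mice, 0.851, 0.770, 0.707 and 0.727 in the NG-KO mice and 0.876, 0.866 and 0.934 in the WT mice. Its highest values were in Δ3102 replicates 1 and 3 and its lowest in NG-KO replicates 2, 3 and 4. Its log2 fold change in AG-KO against NG-KO mice was 0.36 (SE 0.13, unadjusted p = 0.0171, adjusted p = 0.256 from edgeR).

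Pdgfrb, the receptor through which endothelium holds its pericytes, was at 5.16, 4.08 and 4.73 FPKM in the Δ3102 mice, 2.14, 4.80, 6.75 and 7.13 in the AG-KO mice, 4.86, 4.53, 4.60 and 4.81 in the NG-KO mice and 5.72, 3.64 and 4.85 in the WT mice. Both the lowest and the highest of the 14 mice were AG-KO, so the spread within this genotype exceeded every difference between genotypes. Its log2 fold change in AG-KO against NG-KO mice was 0.18 (SE 0.29, 95% interval -0.45 to 0.81), and without AG-KO replicate 4 it was -0.022. Rgs5 stood at 13.5, 16.9 and 12.9 FPKM in the Δ3102 mice, 12.4, 13.6, 15.9 and 17.9 in the AG-KO mice, 12.3, 13.9, 13.2 and 12.4 in the NG-KO mice and 14.04, 14.2 and 17.0 in the WT mice, with a log2 fold change of 0.23 (SE 0.13) in AG-KO against NG-KO mice. Myh11, the myosin of smooth muscle, was at 1.50, 1.46 and 1.94 FPKM in the Δ3102 mice, 1.03, 1.29, 1.69 and 1.84 in the AG-KO mice, 1.16, 1.59, 0.862 and 1.38 in the NG-KO mice and 1.22, 1.18 and 1.93 in the WT mice. For Myh11 the 4 genotypes overlapped, whereas for Rgs5 each NG-KO mouse lay below each WT mouse and the other pairs of genotypes overlapped.

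The difference between AG-KO and NG-KO mice was smaller without AG-KO replicate 4. The count of members at an unadjusted p under 0.05 was then 5 in place of 9, and the median log2 fold change was 0.13 in place of 0.23. With all mice kept, limma on log2(FPKM + 0.1) also gave a count of 5. In neither fit was the share of all tested genes at that p counted. Markers of other cells differed as well. All 7 oligodendrocyte markers were higher in AG-KO than in NG-KO mice at an unadjusted p under 0.05, with a summed FPKM of 398 to 738 in AG-KO against 249 to 369 in NG-KO mice, as were 4 of 9 astrocyte markers (558 to 566 against 481 to 568), 1 of 13 fibroblast and meningeal markers (36.2 to 56.0 against 33.8 to 59.7) and 2 of 9 microglial markers (178 to 193 against 154 to 206). None of the listed markers was at 0 in all mice of a genotype, and their part in the result was not tested.

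In NG-KO against WT mice the members with an unadjusted p under 0.05 were Anpep, Tek, Emcn, Acta2 and Vwf, all lower in NG-KO mice (4.83% of all tested genes were lower at that p). The count of 5 became 3 without NG-KO replicate 3, WT replicate 1 or WT replicate 3, in fits where the share of all tested genes was not counted. In 8 members each NG-KO mouse lay below each WT mouse (6.66% of all tested genes), the others being Sox18, Abcc9 and Rgs5, and in none above (4.2%). By role, 4 of 16 endothelial, 2 of 11 barrier, 3 of 7 pericyte and 0 of 3 smooth muscle genes were higher in NG-KO mice, at medians of -0.090, -0.19, -0.21 and -0.19.

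Anpep had the largest shift among the named members in this comparison. It was at 1.44, 1.44 and 1.27 FPKM in the Δ3102 mice, 1.73, 1.31, 1.36 and 1.64 in the AG-KO mice, 0.993, 1.22, 1.15 and 1.27 in the NG-KO mice and 1.91, 1.69 and 2.42 in the WT mice. Each NG-KO mouse lay below each WT mouse, and of the 11 mutant mice only AG-KO replicate 1 reached the WT range. The log2 fold change was -0.77 (SE 0.17, unadjusted p = 0.000491, adjusted p = 0.189 from edgeR) in NG-KO, -0.53 (SE 0.18, unadjusted p = 0.0122) in Δ3102 and -0.38 (SE 0.17, unadjusted p = 0.0431) in AG-KO against WT mice, all against the same 3 WT mice. DESeq2 gave an adjusted p of 0.00647 in NG-KO against WT mice. No WT mouse enters the contrast of AG-KO against NG-KO mice, where it was 0.40 (SE 0.16, unadjusted p = 0.0248).

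Tek and Emcn, whose values are given above, had log2 fold changes of -0.49 (SE 0.14, unadjusted p = 0.00466, adjusted p = 0.338 from edgeR) and -0.60 (SE 0.20, unadjusted p = 0.0114, adjusted p = 0.398 from edgeR) in NG-KO against WT mice. Acta2, the actin of smooth muscle, was at 9.58, 6.76 and 8.31 FPKM in the Δ3102 mice, 5.87, 5.86, 8.72 and 9.23 in the AG-KO mice, 6.03, 6.47, 5.56 and 7.22 in the NG-KO mice and 8.80, 7.76 and 9.98 in the WT mice. NG-KO mice lay below WT mice, and AG-KO mice split into 2 low and 2 high. Its log2 fold change in NG-KO against WT mice was -0.47 (SE 0.19, unadjusted p = 0.0309, adjusted p = 0.490 from edgeR). Vwf, the clotting glycoprotein stored in endothelium, was at 0.646 to 1.08 FPKM in NG-KO and 1.27 to 1.37 FPKM in WT mice (log2 fold change -0.52, SE 0.23, unadjusted p = 0.0408). For 4 against 3 mice an exact permutation test cannot go below p = 0.0571, which each of these 5 genes reached.

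Markers of other cells differed here too. All 7 oligodendrocyte markers were lower in NG-KO than in WT mice at an unadjusted p under 0.05, with a summed FPKM of 249 to 369 in NG-KO against 397 to 912 in WT mice. The liver genes summed to 64.0 to 279 against 652 to 711. Of these 15 genes 1, Trf, was lower at that p, and 0 were higher whatever their p. Fibroblast and meningeal markers (3 of 13 lower at that p) summed to 33.8 to 59.7 in NG-KO and 32.9 to 69.6 in WT mice, and blood markers (5 of 8 tested lower) to 247 to 532 and 496 to 1149. Their part in the values of the members was not tested.

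In Δ3102 against WT mice the members differed in both directions. Abcc9, Sox17 and Tie1 were higher at an unadjusted p under 0.05 (2.18% of all tested genes) and Slc16a1 and Anpep lower (2.27%). The count of 5 became 2 without Δ3102 replicate 1 and 3 without Δ3102 replicate 2, WT replicate 1 or WT replicate 3. For all tested genes the share in these refits was not counted. In 6 members each Δ3102 mouse lay above each WT mouse (5.4% of all tested genes), the others being Eng, Pecam1 and Ly6c1, and in 2 below (6.13%). An exact permutation test of 3 against 3 mice cannot go below p = 0.1, which these 8 genes reached.

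Slc16a1, the carrier that passes lactate across the barrier and is also made by glia, was at 8.10, 6.31 and 7.81 FPKM in the Δ3102 mice, 9.27, 10.5, 9.61 and 9.02 in the AG-KO mice, 8.13, 8.72, 9.86 and 10.2 in the NG-KO mice and 10.2, 9.72 and 10.1 in the WT mice. The Δ3102 mice were the 3 lowest of the 14. The log2 fold change in Δ3102 against WT mice was -0.43 (SE 0.11, unadjusted p = 0.00172), with an adjusted p of 0.912 from edgeR. In AG-KO and NG-KO against WT mice it was -0.027 (95% interval -0.25 to 0.19) and -0.10 (-0.32 to 0.11). Oligodendrocyte markers were lower in Δ3102 mice as well (4 of 7 at an unadjusted p under 0.05, summed FPKM 347 to 425 against 397 to 912 in WT mice), and their part was not tested.

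Sox17 was at 0.989, 1.05 and 0.872 FPKM in the Δ3102 mice, 0.361, 0.278, 0.281 and 0.835 in the AG-KO mice, 0.711, 0.445, 0.670 and 0.318 in the NG-KO mice and 0.502, 0.524 and 0.343 in the WT mice. The Δ3102 mice were the 3 highest of the 14, followed by AG-KO replicate 4. The log2 fold change in Δ3102 against WT mice was 1.08 (SE 0.44, unadjusted p = 0.0288), from 70 to 309 counts per library over all mice. With limma on log2(FPKM + 1), a scale that understates changes at such low levels, it was 0.44. Abcc9 (0.38, SE 0.15, unadjusted p = 0.0264) and Tie1, the partner receptor of Tek (0.47, SE 0.20, unadjusted p = 0.0379, at 2.86 to 3.45 against 1.87 to 2.83 FPKM), were also higher in Δ3102 mice. The adjusted p of each was 0.9997 from edgeR. Tek itself was at a log2 fold change of -0.038 (95% interval -0.37 to 0.30), and Flt1 at 0.00049 (-0.31 to 0.31). Skeletal muscle markers summed to 683 to 927 FPKM in Δ3102 against 53.3 to 706 in WT mice, and choroid plexus markers to 55.3 to 1551 against 112 to 175, and their part in these values was not tested.

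In AG-KO against WT mice the pair of receptors for vascular endothelial growth factor and Eng were the higher members at an unadjusted p under 0.05 (6.65% of all tested genes were higher at that p). Flt1 had a log2 fold change of 0.42 (SE 0.14, unadjusted p = 0.00917, adjusted p = 0.209 from edgeR), Kdr of 0.51 (SE 0.23, unadjusted p = 0.0473) and Eng of 0.34 (SE 0.14, unadjusted p = 0.0333). Without AG-KO replicate 4 those of Kdr and Eng were 0.25 and 0.22. Anpep and Itm2a (-0.23, SE 0.10, unadjusted p = 0.0469, at 31.1 to 40.7 against 35.3 to 47.7 FPKM) were lower (7.74% of all tested genes), and without WT replicate 3 their values were -0.23 and -0.15. AG-KO and WT mice overlapped in all 37 genes, where 5.04% of all tested genes were higher and 8.3% lower without overlap. Markers of other tissues differed here as well. At that p 11 of 15 liver genes were lower (summed FPKM 99.2 to 365 in AG-KO against 652 to 711 in WT mice). So were 6 of 8 tested blood genes (169 to 434 against 496 to 1149), and 0 genes of either list were higher. Of 9 astrocyte markers 2 were higher, and 0 of 7 oligodendrocyte markers differed. Their part in the values of the members was not tested. The share of members at that p (13.5%) was close to that of all genes (14.4%). The count of 5 was 1 without AG-KO replicate 3. It was 2 without Δ3102 replicate 1 or 2, NG-KO replicate 2 or 3 or WT replicate 1. It was 3 without Δ3102 replicate 3, AG-KO replicate 4, NG-KO replicate 1 or 4 or WT replicate 2 or 3. For all tested genes the share without these libraries was not counted.

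**Figure D4:**
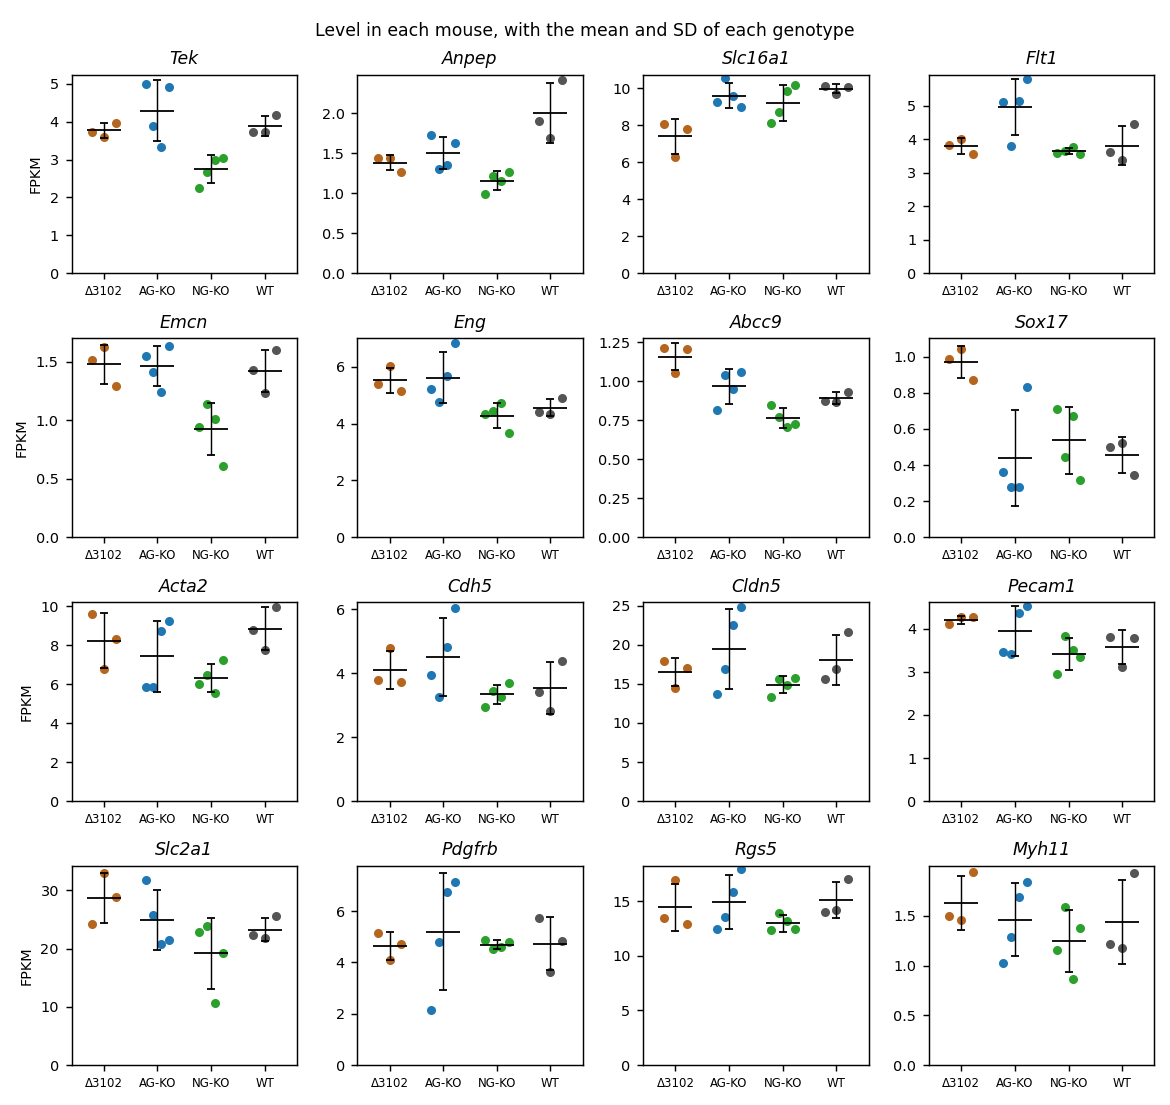
FPKM of the 16 genes described one by one, with 1 point per mouse (replicates left to right), the mean (line) and SD (bars) of each genotype, and axes that start at 0. NG-KO mice are the 4 lowest for Tek, and Δ3102 mice the 3 lowest for Slc16a1 and the 3 highest for Sox17.

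The members not described singly had no unadjusted p under 0.05 in any comparison. They were Esam (an endothelial adhesion molecule, 3.85 to 6.91 FPKM over all mice), Podxl (a mucin of the luminal surface, 5.65 to 9.81), Sox18 and Erg (endothelial transcription factors, 2.03 to 4.39 and 0.722 to 1.52), Cav2 (a partner of Cav1, 2.49 to 4.50), Ocln (occludin of tight junctions, 1.92 to 3.62), Ly6c1 (a surface protein of brain endothelium, 9.51 to 19.5), Notch3 (the Notch receptor of mural cells, 0.970 to 2.03) and Tagln (transgelin of smooth muscle, 2.32 to 5.14), beside Bsg, Slco1a4, Abcb1a, Mfsd2a, Pltp, Vtn, Higd1b and Cav1. Ly6c1 was the nearest to the opposite direction, with a log2 fold change of -0.32 (unadjusted p = 0.0509) in AG-KO against NG-KO mice.

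Another 150 genes of vessels were read for the same comparisons, in lists of other endothelial genes, barrier transport, barrier Wnt signaling, ligands, arterial and venous zones, other pericyte and smooth muscle genes, and basement membrane. Of these 140 were tested, and 0 had an adjusted p under 0.05 from edgeR in any comparison. At an unadjusted p under 0.05, 31 were higher and 6 lower in AG-KO against NG-KO mice, and 3 higher and 22 lower in NG-KO against WT mice, where all tested genes had 7.3% and 6.84%, and 4.33% and 4.83%. Against WT mice the counts were 3 higher and 5 lower in Δ3102 (2.18% and 2.27% of all tested genes) and 9 higher and 8 lower in AG-KO mice (6.65% and 7.74%). The medians of the 140 genes were -0.00091 for Δ3102 against WT, 0.062 for AG-KO against WT, -0.13 for NG-KO against WT and 0.19 between AG-KO and NG-KO mice, beside the 0.024, 0.021, -0.16 and 0.23 of the members.

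In AG-KO against NG-KO mice, 5 of 15 basement membrane genes (Nid1, Lamc1, Col4a2, Col4a1 and Lama5) and 6 of 18 other endothelial genes (Fli1, Emp2, Ptprb, Adgrl4, Cd93 and Nostrin) were higher at that p. The smallest p in each direction was that of Slc19a3, a thiamine carrier (1.37 ± 0.218 FPKM in AG-KO and 0.529 ± 0.169 in NG-KO mice, SD, n = 4 each, log2 fold change 1.39, adjusted p = 0.118 from edgeR), and of Tfrc, the transferrin receptor (9.21 ± 3.13 and 14.9 ± 0.235 FPKM, log2 fold change -0.67). In NG-KO against WT mice they were Pdgfb, the growth factor that draws pericytes and is also made by neurons (8.44 ± 0.744 in NG-KO, n = 4, and 6.04 ± 0.496 in WT mice, n = 3, log2 fold change 0.50, adjusted p = 0.168 from edgeR), and Nid1, a linker of the basement membrane (0.848 ± 0.220 and 1.53 ± 0.0963, log2 fold change -0.84). In AG-KO against WT mice they were Col4a1, its collagen (9.09 ± 2.03 in AG-KO and 5.97 ± 1.33 in WT mice, log2 fold change 0.65), and Mgp, a matrix protein of arteries (9.57 ± 2.32 and 19.4 ± 5.26, log2 fold change -0.996). In Δ3102 against WT mice they were Sema3g, a semaphorin of arterial endothelium (2.47 ± 0.351 in Δ3102 and 1.87 ± 0.235 in WT mice, log2 fold change 0.41), and Cald1, a regulator of contraction (1.51 ± 0.295 and 2.68 ± 0.162, log2 fold change -0.82).

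Some members share sequence with near copies, among which reads could be divided. Abcb1b, the copy of Abcb1a, was at 0.370 to 0.870 FPKM, Ly6c2 at 0.335 to 1.24 and Slco1a5 at 0.160 or less over all mice, well under their partners, whereas Acta1, the actin of skeletal muscle and the near copy of Acta2, reached 178 FPKM against 5.56 to 9.98 for Acta2. Exons of 5 members overlap tested genes on the opposite strand, namely Eng with Fpgs, Pltp with Ctsa, Tagln with Pcsk7 and Gm48529, Slc2a1 with Gm12868 and Notch3 with Gm17276. The library protocol kept strand, but whether the counts used it is not given in the sources used here, so the values of these 5 genes are less certain.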

How the data were processed

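By their methods and processing notes, the authors trimmed reads with cutadapt 1.9, aligned them to GRCm38 using HISAT2 2.0.4 and built transcripts in StringTie 1.3.4d. UMI-tools, DESeq2 and edgeR stand in the notes too, with no settings. StringTie gave the authors the deposited FPKM values, in which 0.0001 stands for no signal. The deposited count values are whole numbers that the authors did not normalize, and the program that made them and its use of strand and molecular identifiers are not given in the sources used here. All 55450 gene identifiers are in GENCODE vM21, from which exons were taken.

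A single edgeR 4.0.16 model in R 4.3.3 took the counts of the 14 libraries together (TMM scaling, quasi-likelihood F test, 1 mean per genotype, no covariates), for the 18059 genes that reached 0.5 FPKM in 3 or more libraries and held 99.6% to 99.7% of each library's counts. Tests were two-sided, and adjusted p is Benjamini-Hochberg over all tested genes, with a threshold of 0.05. Single members were also compared with an exact two-sided permutation test of log2(FPKM + 0.1). The procedure was tested on simulated data. No 2 of the 14 libraries had identical counts. Groups follow the sample labels, and mice with the same replicate number were not treated as pairs.

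The 37 members and the other gene lists were chosen with earlier results of these data known. Values in each mouse are given for members with an adjusted p under 0.05 in any comparison (0), for the 10 with the smallest unadjusted p, and for Cldn5, Pecam1, Slc2a1, Pdgfrb, Rgs5, Acta2 and Myh11, 16 genes in all. Of the other vessel lists, the gene with the smallest unadjusted p in each direction is named for each comparison. Kdr, Tie1, Vwf, Itm2a and the genes listed by count of their group are outside this rule and were chosen after their values were seen. The alternatives were scaling by median ratios, a filter at 1 FPKM or none, a block for the replicate number, fits of 2 genotypes alone, DESeq2 1.42.0, limma 3.58.1 on log2(FPKM + 0.1) and on log2(FPKM + 1), and leaving out each of the 14 libraries. Promoter sequences are those of RefSeq on GRCm38.p6. Python 3.11.15 was used with SciPy 1.17.1, NumPy 2.4.6, pandas 2.3.3 and matplotlib 3.10.9.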

Additional observations from a re-analysis of the deposited data

Results flagged for a closer look

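Sox17 stood at 0.835 FPKM in AG-KO replicate 4, against 0.278 to 0.361 FPKM in the other 3 AG-KO mice, a gap larger than Dixon's test allows at 95% for 4 samples. The test was read for each of the 37 genes in AG-KO and in NG-KO mice, 74 sets in all, of which this was 1, where chance alone marks about 1 in 20. Groups of 3 mice were not tested.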

How the results depend on the processing

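The counts of members at an unadjusted p under 0.05 moved most with the setting. In Δ3102 against WT mice the count was 5 in the fit of all libraries, 8 with only the 2 groups compared and 2 to 6 without single libraries. In AG-KO against WT mice it was 5, 1 with only the 2 groups compared and 1 to 6 without single libraries. In NG-KO against WT mice it was 5, and 3 to 7 without single libraries. In AG-KO against NG-KO mice it was 9, 5 with limma on log2(FPKM + 0.1) and 5 to 13 without single libraries. At an adjusted p under 0.05, DESeq2 called 1 member in NG-KO against WT mice and 3 in AG-KO against NG-KO mice, and without single libraries edgeR called 0 to 2 in AG-KO against NG-KO mice and 0 in the other comparisons. The median log2 fold change of the members ran from -0.066 to 0.12 in Δ3102 against WT, from -0.016 to 0.14 in AG-KO against WT, from -0.21 to -0.072 in NG-KO against WT and from 0.13 to 0.31 in AG-KO against NG-KO mice without single libraries. The share of all tested genes was counted only in the edgeR fit of all libraries without a block. Shifts of the members under the alternatives, the block included, therefore cannot be set against those of all genes. The cause of these shifts was not tested.

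Pairing by replicate number was not assumed. The correlation of deviations between libraries of the same number ran from -0.284 to 0.308, and 6 of 19 such pairs were above 0.1. Libraries of different numbers were not compared in this way, so these values cannot decide whether mice of the same number shared a litter or batch. With the replicate number as a block, the counts at an unadjusted p under 0.05 were 4, 3 and 5 for Δ3102, AG-KO and NG-KO against WT and 10 between AG-KO and NG-KO mice, and 0 members were called.

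Of the 64 log2 fold changes of the 16 named genes, 45 kept their sign in all 22 alternatives. The other 19 lay between -0.19 and 0.18, and 5 of them were beyond 0.1 in size. Outside the omission of single libraries, Flt1 in Δ3102 against WT mice was -0.0027 with no filter and -0.0018 with an FPKM of at least 1. In AG-KO against WT mice Rgs5 was -0.031 and Myh11 -0.039 with the block, and Rgs5 was -0.025 and -0.023 with limma on log2(FPKM + 0.1) and log2(FPKM + 1). Pdgfrb in NG-KO against WT mice was -0.0011 with an FPKM of at least 1 and -0.082 with the block. With limma on log2(FPKM + 1), members at an unadjusted p under 0.05 from edgeR moved by over 1.5 times in Δ3102 against WT mice (Sox17 0.44, Abcc9 0.19, Anpep -0.33), in NG-KO against WT mice (Emcn -0.34, Anpep -0.47, Vwf -0.29), in AG-KO against WT mice (Kdr 0.29) and in AG-KO against NG-KO mice (Emcn 0.36, Abcc9 0.16, Anpep 0.21, Vwf 0.23). Without single libraries, the lowest and highest values in Δ3102 against WT mice were -0.071 and 0.0065 for Tek, -0.078 and 0.12 for Flt1, -0.023 and 0.16 for Emcn, -0.23 and 0.015 for Acta2, -0.21 and 0.013 for Cldn5, -0.18 and 0.14 for Pdgfrb and -0.20 and 0.025 for Rgs5. In AG-KO against WT mice they were -0.064 and 0.0063 for Slc16a1, -0.016 and 0.15 for Emcn, -0.53 and 0.16 for Sox17, -0.019 and 0.45 for Pdgfrb, -0.088 and 0.11 for Rgs5 and -0.076 and 0.32 for Myh11. In NG-KO against WT mice they were -0.13 and 0.066 for Flt1, -0.21 and 0.10 for Cdh5, -0.14 and 0.0044 for Pecam1, -0.16 and 0.17 for Pdgfrb and -0.33 and 0.061 for Myh11, and in AG-KO against NG-KO mice -0.022 and 0.45 for Pdgfrb.

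With 3 or 4 mice per genotype, differences may have been missed, and the smallest detectable difference was not computed. A shift without overlap could also stay uncalled by edgeR, as with Anpep in NG-KO against WT mice (log2 fold change -0.77, adjusted p = 0.189 from edgeR). Low counts (51 to 216 for Higd1b, 70 to 309 for Sox17) widen the spread between mice.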
